A study of Homo sapiens with 16 samples.

Results

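SNU719 and YCC10 are established gastric cancer cell lines that carry Epstein-Barr virus (EBV). Their unperturbed expression was compared in the 8 control libraries of an RNA-seq series of 16 libraries. Each line has 4 control libraries: siCtrl, a control siRNA, in replicates 1 and 2 of a MYB knockdown set, siCtrl of a TCF7 knockdown set, and sgCtrl, a control guide of a CRISPR interference (CRISPRi) set. The other 8 libraries are the matching knockdowns (siMYB, siTCF7 and sgMYB-E3) in the same lines, and they are used below to ask whether a line difference was found again. The medium was RPMI1640 for SNU719 but EMEM for YCC10, both with serum, so line and medium cannot be told apart. Each line is a single cell population, so all differences are between these lines and not between classes of tumour. Nothing in the labels says that libraries of a line came from separate cultures. The p-values therefore measure only the spread between these libraries, which may be technical.

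EBV-positive gastric cancers are known for dense DNA methylation of gene promoters, for amplification of the region that holds the immune checkpoint ligand PD-L1, and for strong lymphocyte infiltration in the tumour. Gastric epithelium is marked by trefoil peptides, mucins and pepsinogens. Intestinal metaplasia replaces part of that programme with intestinal transcription factors, brush border proteins and intestinal mucins.

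All levels are in FPKM (sequenced fragments of a gene divided by the length of its transcript and by the total mapped in that library), which allows levels of different genes to be compared. The depth of the libraries is unknown. Where a line has 4 values in a row, they are in the order siCtrl 1 and siCtrl 2 of the MYB set, siCtrl of the TCF7 set and sgCtrl. A log2 difference is SNU719 minus YCC10 on log2(FPKM + 1) with its standard error (SE). The adjusted p is from limma with the set as covariate and Benjamini-Hochberg adjustment over all genes tested. A gene is called at an adjusted p under 0.05. A log2 difference of genes near 0 depends on the added 1 FPKM and understates the ratio. Values listed at 0 are given as listed, with no fold change.

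The control libraries held 11204 to 12026 genes at 1 FPKM or more. Pearson's r on the log scale was taken over genes averaging at least 1 FPKM over the lines, with short RNA genes left out. It was 0.9757 to 0.9935 within SNU719, 0.9686 to 0.9942 within YCC10 and 0.81 to 0.8385 between the lines. Replicate 1 of siCtrl in the MYB set differed from the rest in both lines by its short RNA genes. Among 263 short RNA genes with 100 FPKM or more in at least 1 library, 69.6 to 74.5 percent had a value of 0 there and 38.4 to 53.2 percent in the 6 remaining controls. Of the 8 epithelial markers, 7 (EPCAM, KRT8, KRT18, KRT19, CDH1, CLDN4 and CLDN7) were at 1 FPKM or more in all 8 libraries and CLDN3 was under 1 in all. Their summed level was 7292 to 8226.5 in SNU719 and 4317 to 6669 in YCC10. Of the 7 stomach markers, CLDN18, MUC5AC, MUC6 and GKN1 were under 1 FPKM in all 8 libraries, and the other 3 (TFF1, TFF2 and PGC) are described below. Fibroblast, endothelial and lymphocyte markers summed to at most 0.632 FPKM in any library.

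With the set as covariate, the lines differed at most of the genes tested. Of 12187 genes averaging 1 FPKM or more, 7797 were called (64.0 percent): 4089 were higher in SNU719 (33.6 percent) and 3708 higher in YCC10 (30.4 percent). The median log2 difference was 0.02. Without the set covariate 5949 of the 12187 genes were called, so the share over all genes depends on that covariate. At 1 log2 unit or more, 1097 genes were called higher in SNU719 (9.00 percent) and 858 higher in YCC10 (7.04 percent). In the knockdown libraries 6895 of 12217 genes were called (56.4 percent). Of the 7797 calls, 7695 could be tested there and 5862 (76.2 percent) were called in the same direction, with 8 in the opposite one. Of the 1955 calls at 1 log2 unit or more, 1891 could be tested there, 1848 (97.7 percent) were called in the same direction and 0 in the opposite one. The knockdown libraries come from the same lines, so this shows that a difference is found again in other libraries of these lines. Counts of calls in the gene lists below are to be read against 33.6 and 30.4 percent, and counts at 1 log2 unit against 9.00 and 7.04 percent. Members averaging under 1 FPKM in a line passed the filter on low values through the other line, which favours a difference. Their number is given beside each list count where there are any.

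MYB, the transcription factor that the series lowers, was expressed in both lines. Its level was 45.7, 44.2, 45.1 and 47.6 FPKM in the SNU719 controls and 29.4, 27.3, 25.6 and 21.1 in the YCC10 controls. All 4 SNU719 libraries were above all 4 YCC10 libraries, the means were 45.7 ± 1.45 and 25.8 ± 3.52 (SD, n = 4), and the log2 difference was 0.81 (SE 0.093, adjusted p = 0.000472). TCF7, a WNT-responsive transcription factor also known from T cells, was at 20.9, 24.2, 26.9 and 24.5 FPKM in SNU719 and 15.9, 16.1, 22.6 and 20.8 in YCC10, with a log2 difference of 0.35 (SE 0.075, adjusted p = 0.00658). The TCF7 libraries of the lines overlapped, since the TCF7-set library of YCC10 lay above the lowest SNU719 library. Without the set covariate TCF7 was no longer called (adjusted p = 0.0604). Of related genes, TCF7L2 (10.3 against 6.70) and CTNNB1, the WNT effector beta-catenin (262 against 164), were called higher in SNU719. MYBL2 was called higher in YCC10 (96.6 against 112, log2 difference -0.20, adjusted p = 0.047), with overlapping libraries, and was no longer called without any one of the 6 siCtrl libraries (adjusted p from 0.0595 to 0.137). MYBL1 did not pass (log2 difference -0.23, adjusted p = 0.156).

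In bulk libraries, a lower level in every cell and fewer cells with the transcript cannot be told apart. Many genes were present in all libraries of a single line. At 5 FPKM or more in all 4 libraries of SNU719 and under 0.1 FPKM in all 4 of YCC10 stood 128 genes, with a median level of 14.6 FPKM in SNU719. The reverse held for 60 genes, with a median of 17.7 FPKM in YCC10. Of the 128, 65 were listed at 0 in every YCC10 control, and of the 60, 22 were listed at 0 in every SNU719 control. The pattern by the same levels was met again in the 8 knockdown libraries by 101 of the 128 (78.9 percent) and 38 of the 60 (63.3 percent). A value of exactly 0 can be a failed estimate in tables of this kind. Leaving out short RNAs, pseudogenes, clones and symbols on several rows, 0 genes were under 0.01 FPKM in 1 control library and at 10 FPKM or more in another of the same line, for either line.

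Several of these genes are active in nearly every human tissue. HSPB1, the small heat shock protein HSP27 (chr7:76302673-76304292), was at 644, 720.2, 269 and 584 FPKM in SNU719 and listed at 0 in all 4 YCC10 libraries (adjusted p = 9.89e-07). ESD, the enzyme esterase D (chr13:46771256-46797700), was at 121, 109, 79.9 and 105 FPKM in SNU719 and listed at 0 in all 4 YCC10 libraries (adjusted p = 1.87e-07). PRNP, which encodes the prion protein (chr20:4686456-4701588), was at 48.3, 47.5, 55.5 and 44.1 FPKM in SNU719 and listed at 0 in YCC10 (adjusted p = 8.61e-08). In each of these genes every SNU719 library was far above 0. PARK7, which encodes the redox-sensitive protein DJ-1 (chr1:7961711-7985505), showed the reverse. It was listed at 0 in all 4 SNU719 libraries and at 216, 236, 216 and 171 FPKM in YCC10 (adjusted p = 8.15e-08). DKK1, a secreted WNT inhibitor (chr10:52314281-52317657), was listed at 0 in SNU719 and at 214, 211, 146 and 208 FPKM in YCC10 (adjusted p = 1.36e-07). The genes drawn in the plot of genes found in a single line were picked by their levels in these same libraries. A gap wider than the spread between libraries follows from that choice.

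**Figure D1:**
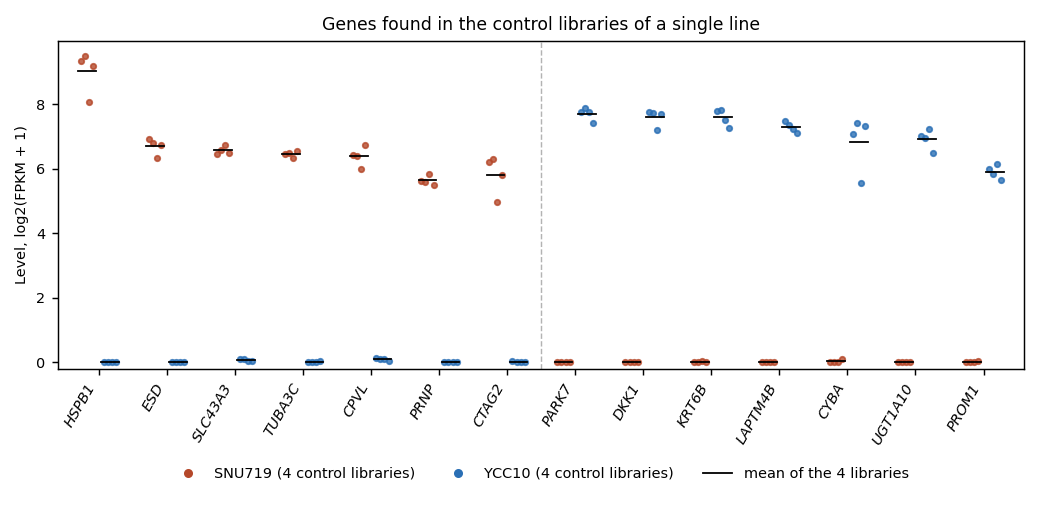
Level of 14 genes in each control library, as log2(FPKM + 1) on the vertical axis; points are libraries (4 per line), black bars their means. The 7 genes left of the dashed line were at or near 0 in all YCC10 libraries and the 7 to the right at or near 0 in all SNU719 libraries.

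The start regions of HSPB1, ESD and PARK7 are printed below because these genes are active in most cell types and yet were listed at 0 in a line. That of DKK1 is shown as the case of a secreted signal, and those of GPA33 and PGC as examples from the intestinal and gastric lists further on. The sequences are from RefSeq (build GRCh38.p14), run from 250 bases before to 50 bases after the start that the promoter table uses, are written in the direction of transcription, and have each CG dinucleotide, the site of DNA methylation, in capitals.
HSPB1: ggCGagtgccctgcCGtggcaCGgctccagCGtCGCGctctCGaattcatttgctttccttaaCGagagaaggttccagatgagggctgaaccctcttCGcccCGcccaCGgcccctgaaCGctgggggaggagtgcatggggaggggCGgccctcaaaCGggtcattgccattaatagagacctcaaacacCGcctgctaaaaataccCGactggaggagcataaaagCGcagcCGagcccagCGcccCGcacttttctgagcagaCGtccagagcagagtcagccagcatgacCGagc
ESD: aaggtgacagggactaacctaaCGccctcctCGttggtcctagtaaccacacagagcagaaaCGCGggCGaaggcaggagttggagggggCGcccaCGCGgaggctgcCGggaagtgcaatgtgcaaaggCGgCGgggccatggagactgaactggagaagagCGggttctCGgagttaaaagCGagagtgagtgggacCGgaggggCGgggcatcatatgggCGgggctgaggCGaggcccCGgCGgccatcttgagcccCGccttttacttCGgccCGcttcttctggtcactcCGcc
PARK7: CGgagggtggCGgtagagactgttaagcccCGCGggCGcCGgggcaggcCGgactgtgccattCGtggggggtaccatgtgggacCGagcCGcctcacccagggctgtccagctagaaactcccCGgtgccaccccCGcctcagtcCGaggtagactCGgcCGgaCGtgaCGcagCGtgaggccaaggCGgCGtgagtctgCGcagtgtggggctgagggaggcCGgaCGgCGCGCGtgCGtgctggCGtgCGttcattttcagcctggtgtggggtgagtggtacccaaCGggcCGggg
DKK1: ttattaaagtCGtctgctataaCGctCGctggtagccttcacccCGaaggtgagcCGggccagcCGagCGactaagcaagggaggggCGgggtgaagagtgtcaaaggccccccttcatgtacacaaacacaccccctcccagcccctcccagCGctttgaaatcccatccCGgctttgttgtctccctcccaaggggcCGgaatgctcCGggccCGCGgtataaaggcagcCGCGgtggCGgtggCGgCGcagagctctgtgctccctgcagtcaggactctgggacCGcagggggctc
GPA33: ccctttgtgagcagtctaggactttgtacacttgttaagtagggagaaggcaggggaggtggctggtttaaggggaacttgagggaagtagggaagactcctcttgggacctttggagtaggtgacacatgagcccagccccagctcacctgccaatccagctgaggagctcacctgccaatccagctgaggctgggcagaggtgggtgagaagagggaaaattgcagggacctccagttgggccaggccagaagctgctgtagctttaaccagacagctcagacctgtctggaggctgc
PGC: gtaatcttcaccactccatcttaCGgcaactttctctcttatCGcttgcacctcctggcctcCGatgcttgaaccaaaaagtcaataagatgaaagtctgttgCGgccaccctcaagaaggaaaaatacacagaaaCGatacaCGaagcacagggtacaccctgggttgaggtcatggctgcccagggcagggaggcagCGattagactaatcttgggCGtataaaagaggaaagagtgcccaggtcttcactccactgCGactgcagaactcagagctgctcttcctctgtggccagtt
The window of HSPB1 (chr7:76302423-76302722, plus strand) holds 22 CG dinucleotides, that of ESD (chr13:46797112-46797411, minus strand) 24, that of PARK7 (chr1:7961461-7961760, plus strand) 31 and that of DKK1 (chr10:52314031-52314330, plus strand) 20. The windows of GPA33 (chr1:167090328-167090627, minus strand) and PGC (chr6:41747348-41747647, minus strand) hold 0 and 9. For ESD that start lies inside the span of the gene given above. CG is its own reverse complement, so the count is the same on both strands. Over the 27305 promoters of the RefSeq table, 1 per symbol, the median was 14 and 95.8 percent held at least 1 CG. The first 4 windows lie above that median and those of GPA33 and PGC below it. Among the tested genes with an entry (77.0 percent, too few for a test of gene sets) the median was 26, with PARK7 above it and the other 5 below. The median was 19.5 over the 94 genes with an entry among the 128 found in SNU719 alone. Over the 45 with an entry among the 60 found in YCC10 alone it was 18. The printed windows were picked by gene and do not stand for these sets. DNA methylation was not measured in these libraries.

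A neighbour of PARK7 was listed at 0 in SNU719 as well. ERRFI1, an inhibitor of EGF receptor signalling that lies next to PARK7 (chr1:8011727-8026309), was listed at 0 in all 4 SNU719 libraries and at 27.4, 27.0, 33.0 and 31.7 FPKM in YCC10 (adjusted p = 1.51e-07). Going outward from the pair, UTS2 and TNFRSF9 were at most weakly expressed in either line (means of 0 and 0.00236 in SNU719, 0.716 and 0.0806 in YCC10). The next expressed genes were present in both lines: PER3 averaged 11.1 FPKM in SNU719 and 4.996 in YCC10, VAMP3 59.7 and 52.6, RERE 12.6 and 10.5, and ENO1 1457 and 809.6. On the far side of ERRFI1, LINC01714 was listed at 0 in all 8 libraries and SLC45A1 averaged 0.0136 in SNU719 and 0.00415 in YCC10. PRNP and RASSF2, a RAS-binding tumour suppressor, form a similar pair on chromosome 20 with the lines exchanged. RASSF2 (chr20:4780023-4823608) was at 6.94, 7.48, 6.35 and 5.98 FPKM in SNU719 and 0, 0, 0.0248 and 0.00748 in YCC10, while the next expressed gene, SLC23A2, averaged 6.17 and 13.6. These neighbours, other than RASSF2, were picked for their position after the values of PARK7 and PRNP were seen.

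Further genes present in SNU719 alone included SLC43A3, a nucleobase transporter (87.0, 94.6, 106 and 89.6 FPKM), and CPVL, a carboxypeptidase (85.0, 83.2, 62.6 and 105). TUBA3C, a testis tubulin, was at 86.7, 89.5, 79.3 and 92.9 FPKM. In YCC10 these genes stayed under 0.1 FPKM in each control library. Genes present in YCC10 alone included LAPTM4B, a lysosomal membrane protein (178, 163, 149.7 and 138 FPKM), PROM1, the CD133 antigen (62.2, 56.4, 70.1 and 48.8), and CXCR4, a chemokine receptor (38.2, 36.0, 28.3 and 51.8). SLFN11, whose product sensitises cells to DNA-damaging drugs, was at 43.8, 40.8, 53.02 and 27.8 FPKM. CYBA, a subunit of the NADPH oxidases, was at 132, 169, 45.6 and 158 FPKM, with the TCF7-set library lowest. In SNU719 the same genes were under 0.1 FPKM in each control library. Among genes that missed those levels, ODAM, a secreted epithelial protein, was at 0.513, 0.418, 0.474 and 0.331 FPKM in SNU719 and 577, 544, 448 and 362 in YCC10, with a log2 difference of -8.38 (SE 0.098, adjusted p = 8.61e-08). IL2RG, the common gamma chain of interleukin receptors, was at 63.8, 69.2, 76.6 and 66.9 FPKM in SNU719 and 0, 0.173, 0.284 and 0.0287 in YCC10.

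The lists of genes drawn from known pathways and lineages are summarised in the plot of list shares. The largest shares at 1 log2 unit in the SNU719 direction were those of cancer-testis antigens (25 of 29 tested), HOX genes (7 of 12) and intestinal genes (7 of 13), among lists with at least 10 tested genes. In the YCC10 direction they were those of chemokines (5 of 10) and keratins (6 of 13). Members averaging under 1 FPKM in a line were 26 of the 29 cancer-testis, 9 of the 12 HOX and 5 of the 13 intestinal genes. They were 2 of the 10 chemokines and 6 of the 13 keratins. Such members passed the filter through the other line, which favours a difference, so the order of the lists follows in part from the filter. The gastric list had 8 tested genes and is described next.

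**Figure D2:**
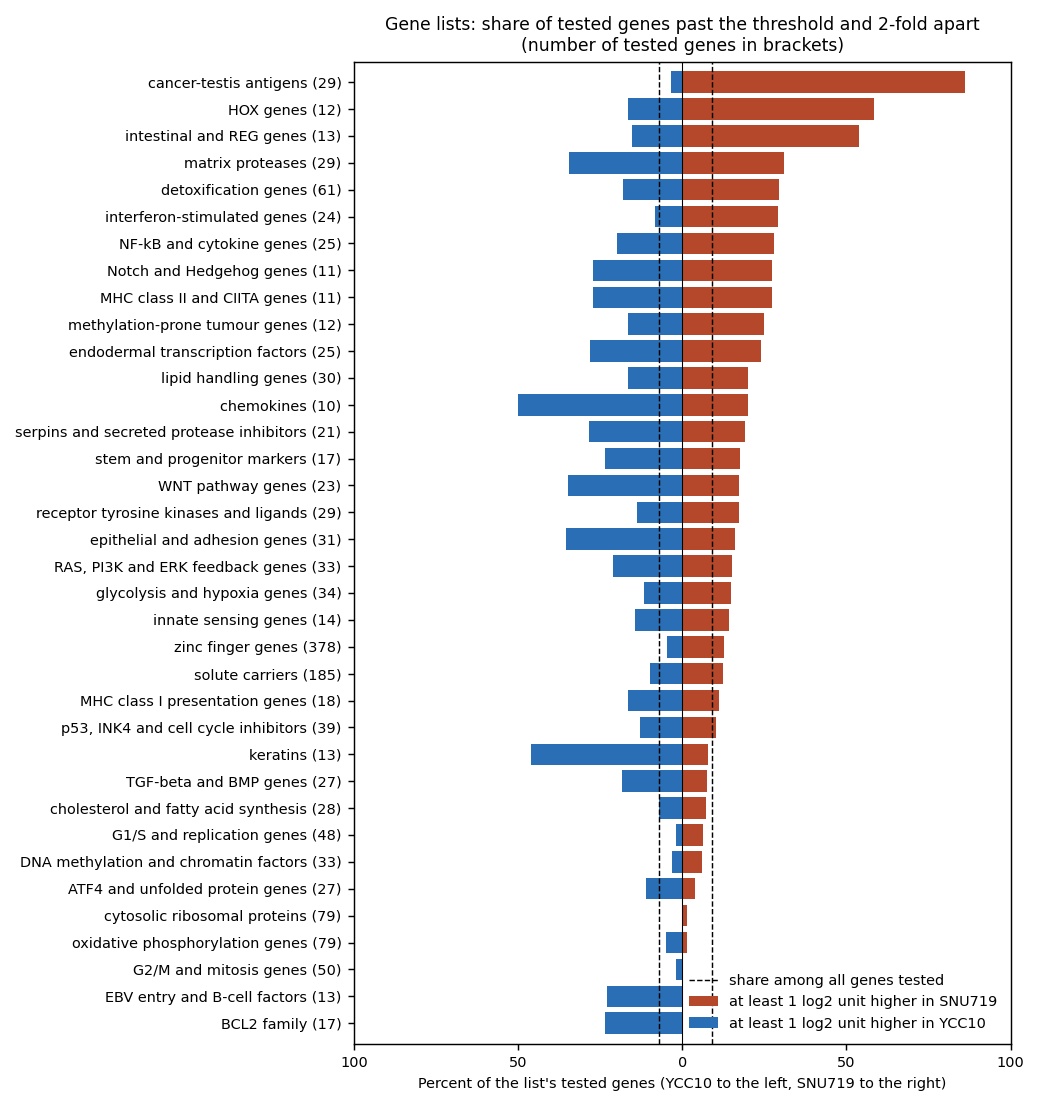
Percent of tested genes in each list that were called and at least 1 log2 unit higher in SNU719 (bars to the right) or in YCC10 (bars to the left), for lists with at least 10 tested genes. Dashed lines mark the share among all 12187 genes tested, 9.00 percent higher in SNU719 and 7.04 percent higher in YCC10. Cancer-testis antigens, HOX and intestinal genes reach furthest to the right. The lists differ in how many members passed the filter through a single line.

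Genes of the stomach lining were higher in YCC10. Of the 26 genes in the gastric list, 8 were tested, 6 of which averaged under 1 FPKM in a line; 7 were called higher in YCC10, all by at least 1 log2 unit, and 1 higher in SNU719. The median log2 difference was -4.0, against 0.02 over all genes, and -2.98 in the knockdown libraries. For the gastric, intestinal and HOX lists all tested members are shown, which goes beyond the rule for naming genes. CTSE, the stomach protease cathepsin E, was at 0.469, 0.337, 0.3996 and 0.153 FPKM in SNU719 and 64.6, 64.8, 57.1 and 28.9 in YCC10 (log2 difference -5.29, SE 0.15, adjusted p = 1.5e-06). PGC, which encodes pepsinogen C, was at 0, 0.0353, 0 and 0.0840 FPKM in SNU719 and 18.9, 20.3, 19.2 and 27.0 in YCC10 (adjusted p = 3.4e-07). In both genes the lowest YCC10 library was far above the highest SNU719 library.

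The trefoil peptides of gastric mucus followed. TFF1 was at 1.08, 0.431, 0.447 and 0.797 FPKM in SNU719 and 40.7, 38.8, 13.2 and 23.3 in YCC10, and TFF2 at 0.312, 0, 0.323 and 0.0823 and 15.3, 19.6, 9.09 and 23.8. Within YCC10 the siCtrl library of the TCF7 set was lowest for both. Their log2 differences were -4.04 (SE 0.25, adjusted p = 3.12e-05) and -3.86 (SE 0.26, adjusted p = 4.59e-05). ANXA10, an annexin of gastric mucosa, averaged 1.03 FPKM in SNU719 and 31.4 in YCC10. BPIFB1, a secreted antimicrobial protein, averaged 0.00716 and 21.7, and AQP5, a water channel of pyloric glands, 0.139 and 4.69. CAPN8, a stomach calpain, went the other way (24.8 ± 6.82 in SNU719 and 16.6 ± 0.976 in YCC10, SD, n = 4, adjusted p = 0.0204 by limma). CAPN8 was no longer called without SNU719 siCtrl 2 of the MYB set (adjusted p = 0.0545) or without YCC10 siCtrl 1 of that set (0.0546). MUC1, a cell surface mucin from the epithelial list, was at 1.64, 2.04, 4.47 and 3.44 FPKM in SNU719 and 62.5, 69.5, 105 and 120.1 in YCC10 (log2 difference -4.54, SE 0.097, adjusted p = 5.17e-07).

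Intestinal genes were mostly higher in SNU719. Of 36 in the list, 13 were tested (5 under 1 FPKM in a line), 9 were called higher in SNU719 and 2 higher in YCC10, with a median of 1.27. GPA33, a cell surface antigen of intestinal epithelium, was at 28.3, 29.4, 30.4 and 30.1 FPKM in SNU719 and 0.0182, 0.0653, 0.0537 and 0.0649 in YCC10 (adjusted p = 8.15e-08). VIL1, the actin-bundling protein villin of the brush border, was at 40.7, 41.1, 43.2 and 41.3 FPKM in SNU719 and 1.87, 2.33, 3.02 and 2.05 in YCC10, a mean 17.9-fold higher (log2 difference 3.69, SE 0.081, adjusted p = 5.52e-07). Neither gene had overlapping libraries. LGALS4, an intestinal galectin whose symbol stands on several rows that were summed, averaged 494 FPKM in SNU719 and 1.54 in YCC10. AGR3, a disulfide isomerase, averaged 44.3 and 0.706. The transmembrane mucin MUC13 averaged 72.7 and 25.2 FPKM, the secreted lectin REG4 127 and 39.4, the ferroxidase HEPH 33.7 and 13.4, and AGR2 912 and 624. CDX2, the transcription factor that specifies intestine, was at 9.06, 9.92, 7.32 and 5.80 FPKM in SNU719 and 3.43, 4.22, 4.88 and 2.89 in YCC10. Its log2 difference was 0.89 (SE 0.13, limma adjusted p = 0.00117), and 0.51 over all 16 libraries (limma adjusted p = 0.0578). In the knockdown libraries MUC13, AGR2 and CDX2 were not called (log2 differences 0.83, 0.02 and 0.13, limma adjusted p = 0.136, 0.925 and 0.767).

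TFF3 and SPDEF were the intestinal list members called higher in YCC10. TFF3, the intestinal trefoil peptide, was at 0, 0, 0.101 and 0 FPKM in SNU719 and 15.5, 19.6, 4.69 and 27.5 in YCC10 (adjusted p = 0.00023). SPDEF, a transcription factor of secretory cells, was at 0.965, 0.918, 0.386 and 0.459 FPKM in SNU719 and 23.8, 28.1, 13.3 and 24.5 in YCC10 (adjusted p = 2.81e-06). Both were higher in every YCC10 library than in any SNU719 library. SPINK4, a goblet cell peptide, did not pass (47.7 ± 7.36 in SNU719 and 61.1 ± 27.6 in YCC10, SD, n = 4, adjusted p = 0.378), and neither did REG1A (adjusted p = 0.122; 0.0267 or 0.0445 without siCtrl 1 of the MYB set of SNU719 or YCC10). CDH17, the liver-intestine cadherin from the epithelial list, was at 46.5, 42.1, 38.7 and 26.7 FPKM in SNU719 and 0.0613, 0.0440, 0.0845 and 0.0438 in YCC10 (adjusted p = 8.12e-07). The plot of gastric and intestinal genes shows these blocks side by side.

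**Figure D3:**
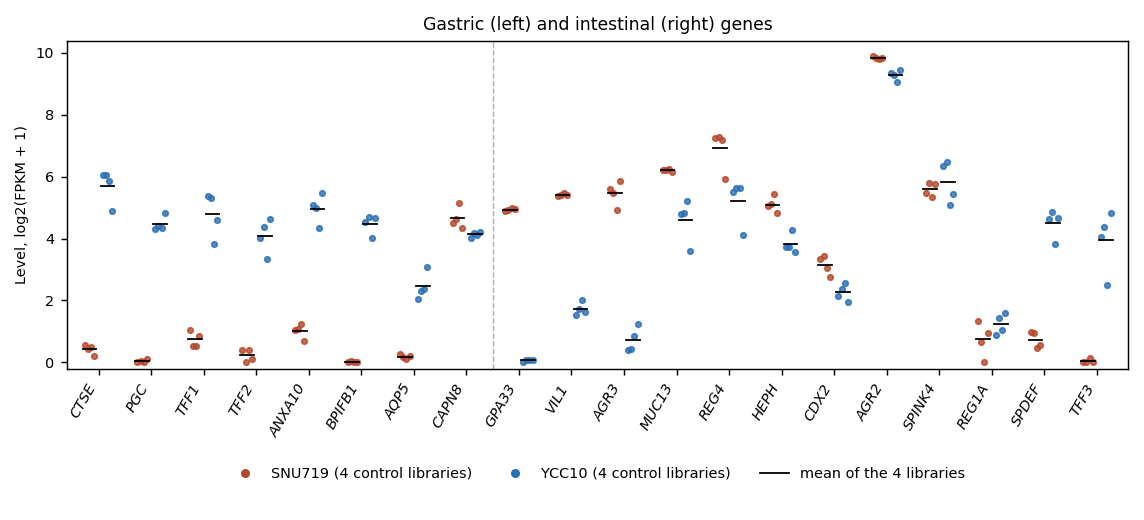
Level in each control library, as log2(FPKM + 1), of the tested members of the gastric list (left of the dashed line) and of the intestinal list other than LGALS4 (right); points are libraries (4 per line), black bars their means. YCC10 is above SNU719 for 7 of the 8 gastric genes, and SNU719 is above YCC10 for most intestinal genes, with SPDEF and TFF3 reversed.

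Among 25 tested transcription factors of gut endoderm, 10 were called higher in SNU719 and 11 higher in YCC10, 4 being under 1 FPKM in a line. ASCL2, a factor of intestinal stem cells, was at 9.60, 11.7, 4.29 and 12.2 FPKM in SNU719 and listed at 0 in YCC10 (adjusted p = 4.85e-05). NKX6-3, a factor of the gastric antrum, was at 9.76, 12.5, 7.98 and 9.77 FPKM in SNU719 and listed at 0 in YCC10. So not every stomach gene of these lists was higher in YCC10. PDX1, which marks the antrum and duodenum, averaged 24.0 FPKM in SNU719 and 9.42 in YCC10. GATA5 was listed at 0 in SNU719 and at 7.15, 9.20, 4.43 and 8.93 FPKM in YCC10 (adjusted p = 1.89e-05). SIM2 averaged 4.33 in SNU719 and 45.1 in YCC10, TBX3 12.3 and 33.6, and the pioneer factor FOXA1 2.89 and 8.96. KLF5, an epithelial factor high in both lines, did not pass (91.9 and 102 FPKM, adjusted p = 0.179), except without the TCF7-set control of SNU719 (adjusted p = 0.0366) or of YCC10 (0.037).

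HOX genes record position along the body axis and differed between the lines by cluster. Of 39 HOX genes in the table, 12 were tested (9 under 1 FPKM in a line) and all 12 were called, 7 higher in SNU719 and 5 higher in YCC10. From the HOXA cluster, SNU719 expressed HOXA10 at 34.5, 33.0, 30.8 and 29.3 FPKM and HOXA13 at 17.6, 16.04, 17.5 and 18.1, while YCC10 listed HOXA10 at 0 and had HOXA13 at no more than 0.0079 FPKM. HOXA11, which lies between them, averaged 5.15 FPKM in SNU719 and 1.22 in YCC10, so this stretch was not at 0 throughout in YCC10. HOXA11 overlaps an antisense gene, and whether strand was used in counting is not given here. From the HOXB cluster, HOXB7 was at 20.9, 20.6, 16.9 and 20.1 FPKM and HOXB9 at 25.9, 26.3, 18.9 and 27.9 in SNU719, and both were listed at 0 in YCC10. HOXB8, between them, averaged 2.19 and 0.00485 FPKM. In the HOXC cluster the lower-numbered genes were higher in YCC10: HOXC4 was at 8.47, 8.27, 6.67 and 6.73 FPKM there and 0.123, 0.0274, 0.0748 and 0.217 in SNU719, and HOXC5 at 8.86, 10.1, 6.33 and 8.46 and 0.132, 0.0411, 0.0810 and 0.161. HOXC6 averaged 1.75 in SNU719 and 3.85 in YCC10, and HOXC9 5.40 and 8.55, with overlapping libraries for HOXC9 (adjusted p = 0.000544). The spans of HOXC4, HOXC5 and HOXC6 start at the same base and overlap, so the split of signal between these genes is uncertain. HOXC13, at the far end of that cluster, was at 3.69, 3.73, 2.82 and 2.74 FPKM in SNU719 and averaged 0.0133 in YCC10. HOXA3 was the HOXA gene higher in YCC10 (0.767, 0.768, 0.487 and 1.38 in SNU719, 2.16, 1.94, 1.53 and 5.44 in YCC10, adjusted p = 0.00119).

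**Figure D4:**
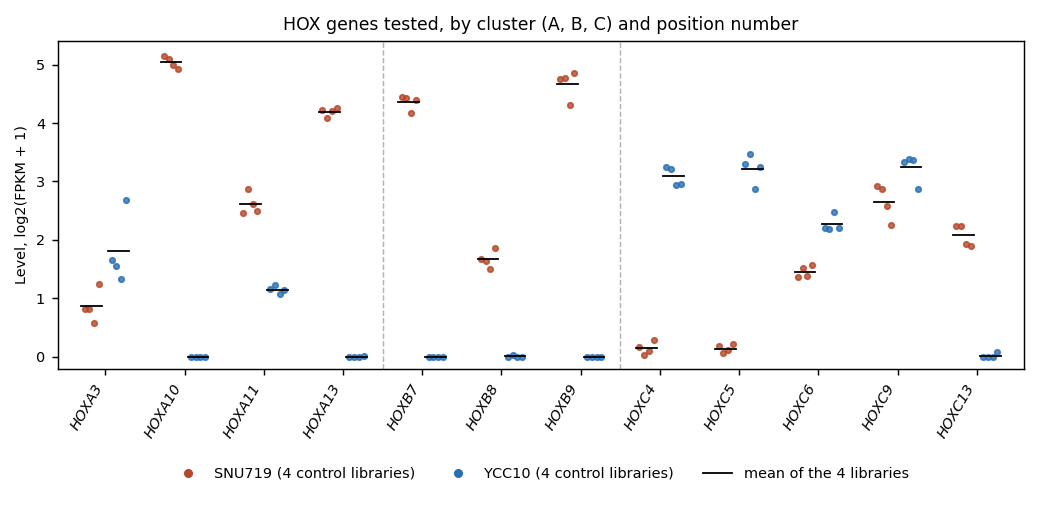
Level of the 12 tested HOX genes in each control library, as log2(FPKM + 1), grouped by cluster (dashed lines separate HOXA, HOXB and HOXC); points are libraries (4 per line), black bars their means. SNU719 carries HOXA10, HOXA13, HOXB7, HOXB8, HOXB9 and HOXC13, and YCC10 is higher at HOXA3 and at HOXC4, HOXC5, HOXC6 and HOXC9.

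Both lines expressed epithelial markers but differed in keratins and adhesion proteins. Of 31 tested epithelial and adhesion genes (4 under 1 FPKM in a line), 18 were called higher in YCC10 and 10 higher in SNU719. Their median log2 difference was -0.81. KRT8 and KRT18, the keratins of simple epithelium, averaged 3204 and 2690 FPKM in SNU719 and 2197 and 1846 in YCC10. The KRT8 libraries overlapped (adjusted p = 0.00278, and 0.0559 without the set covariate), and KRT19 did not pass (677 and 706, adjusted p = 0.8). YCC10 also expressed keratins of stratified epithelium. Its libraries held KRT6A, KRT6B and KRT6C at a summed 280.3, 311, 246 and 215 FPKM, against 0, 0.0196, 0.0204 and 0 in SNU719. These genes are near-identical, so their split is uncertain. KRT5, another keratin of stratified epithelium, was listed at 0 in SNU719 and at 10.3, 8.99, 8.71 and 7.36 FPKM in YCC10 (limma adjusted p = 1.16e-06). Of 13 tested keratins, 6 of them under 1 FPKM in a line, 7 were called higher in YCC10 and 3 higher in SNU719. CDH1, which encodes E-cadherin, did not pass (111 ± 26.9 and 120.4 ± 7.19 FPKM, SD, n = 4, adjusted p = 0.205; 0.00872 or 0.00848 without the TCF7-set control of SNU719 or YCC10). CDH3, P-cadherin, was at 51.0, 52.5, 60.4 and 55.6 FPKM in SNU719 and 0.150, 0.135, 0.134 and 0.0731 in YCC10. Among carcinoembryonic antigens, CEACAM6 averaged 28.6 FPKM in SNU719 and 3.12 in YCC10, while CEACAM1 averaged 11.1 and 85.5 and CEACAM5 0.451 and 7.95. VIM, the mesenchymal filament vimentin, averaged 0.937 and 2.65, and 25 of the 30 mesenchymal genes fell under the filter.

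Cancer-testis antigens, genes of the germ line that are switched on in some tumours, were mostly found in SNU719. Of 107 in the table, 29 were tested, 26 of them under 1 FPKM in a line; 26 were called higher in SNU719 and 2 higher in YCC10. The GAGE genes form near-identical copies on chromosome X, so the split between members is uncertain and they are given as a sum. The summed GAGE level was 1232, 1379, 1145 and 1083 FPKM in SNU719 and 0 in each YCC10 control. The summed MAGEA level was 103, 101, 111 and 108 FPKM in SNU719 and 0.0540, 0.00260, 0 and 0.0251 in YCC10. The SSX genes summed to 161, 164, 168 and 169.6 FPKM in SNU719 and 14.8, 13.9, 17.7 and 15.0 in YCC10, where SSX transcripts were thus lower but present. CTAG2, of the NY-ESO-1 family, was at 72.5, 78.2, 30.2 and 54.7 FPKM in SNU719 and at no more than 0.0255 in YCC10. HORMAD1, a meiotic chromosome protein, was listed at 0 in SNU719 and at 4.02, 3.78, 4.18 and 4.13 FPKM in YCC10 (adjusted p = 1.92e-06). ATAD2, a chromatin reader of dividing cells that is also counted in this list, averaged 28.1 and 45.8.

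More zinc finger transcription factor genes were found in SNU719 alone than in YCC10 alone. Of 534 in the table, 378 were tested (53 under 1 FPKM in a line); 142 were called higher in SNU719 and 97 higher in YCC10, and at 1 log2 unit 48 and 18. At 1 FPKM or more in all 4 libraries of SNU719 and under 0.1 in all 4 of YCC10 were 43 zinc finger genes (384 of all 28167 genes in the table), of which 29 lie on chromosome 19, where 258 of the 534 reside. The reverse held for 4 (153 of all genes), of which 1 lies on chromosome 19. At 5 FPKM and 0.1, the levels used above, they were 7 of the 128 and 1 of the 60 genes. ZNF790 averaged 8.86 FPKM in SNU719 and 0.00530 in YCC10, ZNF841 18.9 and 0.192, and ZNF585A 22.6 and 0.494. In the other direction, ZNF614 averaged 0.164 in SNU719 and 29.995 in YCC10, and ZNF22 was listed at 0 in SNU719 and averaged 11.5 in YCC10. Many of these genes have close paralogs, which the counting could split unevenly.

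Factors that write or read DNA methylation and chromatin marks differed in part. Of 33 tested, 10 were called higher in SNU719, 9 higher in YCC10 and 14 did not pass. DNMT1, the maintenance methyltransferase, did not pass (38.2 ± 3.44 and 37.6 ± 4.12 FPKM, SD, n = 4, adjusted p = 0.703), and nor did UHRF1, which recruits it (adjusted p = 0.904). The writers of new methylation differed in opposite directions. DNMT3A was at 14.6, 13.5, 16.3 and 14.3 FPKM in SNU719 and 4.94, 5.69, 6.83 and 6.52 in YCC10, and DNMT3B at 1.63, 1.647, 1.77 and 3.76 and 5.49, 5.57, 6.25 and 7.77. Neither gene had overlapping libraries, and the log2 differences were 1.17 (SE 0.069, adjusted p = 2.65e-05) and -1.22 (SE 0.094, adjusted p = 8.13e-05). EZH2, the Polycomb methyltransferase, averaged 58.1 in SNU719 and 34.9 in YCC10, and SMARCA2, a remodelling ATPase, 8.58 and 2.31. Of 12 tested tumour genes known for promoter methylation (4 under 1 FPKM in a line) 6 were called higher in SNU719 and 3 higher in YCC10. HLTF, a DNA repair helicase, was at 13.5, 11.2, 11.8 and 13.2 FPKM in SNU719 and listed at 0 in YCC10. CDKN2B, the cell cycle inhibitor p15, was at 4.35, 4.16, 6.16 and 7.32 FPKM in SNU719 and listed at 0 in YCC10 (adjusted p = 1.29e-05). MGMT, a DNA repair enzyme, averaged 3.02 and 0.605. GSTP1, given further on, and RASSF1, a RAS-association tumour suppressor (6.84 and 12.4), were higher in YCC10.

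Innate sensing differed gene by gene. PYCARD, the adaptor ASC that assembles inflammasomes, was at 33.7, 43.6, 18.1 and 35.4 FPKM in SNU719 and 0.0774, 0.150, 0 and 0.126 in YCC10 (log2 difference 4.89, SE 0.17, adjusted p = 3.52e-06). NLRP1, an inflammasome sensor, averaged 2.19 and 0.0758 FPKM. IFI16, a nuclear DNA sensor known to detect herpesvirus genomes, was at 0.0527, 0.0328, 0.0548 and 0.0390 FPKM in SNU719 and 7.32, 6.54, 5.32 and 5.75 in YCC10 (log2 difference -2.78, SE 0.091, adjusted p = 2.44e-06). PYCARD and NLRP1 were thus at or near 0 in YCC10 and IFI16 in SNU719. CGAS, the cytosolic DNA sensor, averaged 8.77 and 5.31, and the adaptors MYD88 (21.6 and 19.3, adjusted p = 0.0752) and TICAM1 (adjusted p = 0.889) did not pass.

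Interferon-stimulated genes were more often higher in SNU719, with the OAS genes split. Of 24 tested (2 under 1 FPKM in a line), 15 were called higher in SNU719 and 6 higher in YCC10, with a median of 0.38. ISG15, a ubiquitin-like modifier, was at 49.2, 61.1, 16.5 and 43.6 FPKM in SNU719 and 10.6, 11.9, 3.02 and 9.27 in YCC10, 4.89-fold apart by the means (adjusted p = 4.27e-06). IFIH1, the RNA sensor MDA5, averaged 8.495 and 1.90, and IFIT5 2.66 and 0.0318. OAS1, which makes the activator of RNase L, was at 13.7, 14.8, 11.6 and 10.4 FPKM in SNU719 and 123, 127, 160.2 and 82.5 in YCC10, 9.73-fold apart in the other direction (adjusted p = 6.31e-06). OAS3 averaged 6.56 and 38.7, and OASL 6.35 and 1.54. IFITM3, which blocks virus entry, averaged 228 and 373, and BST2, the tetherin that holds back virions, did not pass (adjusted p = 0.211).

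Antigen presentation and checkpoint genes differed in both directions. HLA genes stand on several rows, 1 for each alternative haplotype, and are not named. Of 18 tested MHC class I genes (1 under 1 FPKM in a line) 5 were called higher in SNU719 and 7 higher in YCC10. The peptide-loading chaperones CALR (518 and 937 FPKM) and PDIA3 (153 and 291) were higher in YCC10, and ERAP1, which trims peptides, was higher in SNU719 (20.8 and 10.2). Of 11 tested MHC class II genes (3 under 1 FPKM in a line) 7 were called higher in SNU719 and 3 higher in YCC10. The regulators RFX5 (14.2 and 9.65) and RFXAP (3.16 and 1.42) were higher in SNU719. CIITA, the master activator of MHC class II, averaged 0.285 FPKM in SNU719 and 1.75 in YCC10, and CD74, the invariant chain, 0.251 and 2.77, both higher in YCC10. CD274, which encodes PD-L1, was at 3.83, 2.75, 3.05 and 2.48 FPKM in SNU719 and 0.522, 0.747, 0.632 and 0.343 in YCC10 (log2 difference 1.36, SE 0.11, adjusted p = 8.71e-05). LGALS9, the checkpoint ligand galectin 9, averaged 50.4 and 11.2, and NECTIN2, a ligand of TIGIT, 34.6 and 81.2. Both PD-L1 and galectin 9 transcripts were thus higher in SNU719 and NECTIN2 higher in YCC10.

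Secreted inflammatory signals differed in kind. Of 10 tested chemokines (2 under 1 FPKM in a line) 6 were called higher in YCC10 and 2 higher in SNU719. CXCL13, which attracts B cells, was at 0.192, 0.165, 0.531 and 0.236 FPKM in SNU719 and 154, 138, 146 and 299 in YCC10 (adjusted p = 1.59e-06). CXCL8, the neutrophil attractant interleukin 8, was at 10.4, 7.79, 15.1 and 6.81 and 229.8, 214, 374 and 55.9 FPKM (log2 difference -4.09, SE 0.30, adjusted p = 6.46e-05), and CXCL1 averaged 3.20 and 62.9. CXCL5, from the same group of neutrophil attractants, was reversed (133 in SNU719 and 28.3 in YCC10, adjusted p = 0.00271). Of 25 tested NF-kB and cytokine genes (5 under 1 FPKM in a line), 11 were called higher in SNU719 and 6 higher in YCC10. Cytokines higher in SNU719 included IL32 (89.5, 105, 97.0 and 67.3 FPKM against 2.04, 2.35, 7.63 and 0.575), IL23A (19.1 and 0.819 on average) and IL15 (4.13 and 0.159). IL1RN, of the same list, was higher in YCC10 (2.68 in SNU719 and 11.4 in YCC10, limma adjusted p = 1.2e-05). NFKB2, the precursor of the noncanonical NF-kB subunit, averaged 35.7 FPKM in SNU719 and 10.4 in YCC10, and TRAF3, which restrains that pathway, 2.79 and 7.13. RELA, the canonical subunit, did not pass (20.98 and 24.5, limma adjusted p = 0.054). Under some alternatives it was called higher in YCC10, as with a replicate block (limma adjusted p = 0.019) or median-of-ratios scaling (0.0291).

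Genes tied to EBV entry and B-cell identity leaned to YCC10. Of 13 tested (1 under 1 FPKM in a line), 8 were called higher in YCC10, 0 higher in SNU719 and 5 did not pass; the median was -0.59. EPHA2, the epithelial receptor for EBV, did not pass (58.2 ± 3.69 and 52.5 ± 5.25 FPKM, SD, n = 4, adjusted p = 0.139), but over all 16 libraries it was called higher in SNU719 (log2 difference 0.50, adjusted p = 0.00331). The integrin chains ITGAV (7.86 and 28.7) and ITGB5 (37.6 and 99.9) and the coreceptor NRP1 (10.3 and 18.8) were higher in YCC10. RBPJ, the DNA-binding partner of the viral EBNA2 protein, did not pass (adjusted p = 0.495). Lymphoid kinases differed as well, although lymphocyte markers were at or near 0 in both lines: LCK averaged 1.54 FPKM in SNU719 and 12.5 in YCC10, and FYN was at 6.51, 6.74, 5.43 and 7.28 in SNU719 and listed at 0 in YCC10.

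WNT pathway genes were split between the lines, with secreted inhibitors on both sides. Of 23 tested (6 under 1 FPKM in a line), 9 were called higher in SNU719 and 11 higher in YCC10. DKK1, shown above, was found in YCC10 and its relative DKK4 in SNU719, at 30.2, 34.3, 31.1 and 34.3 FPKM against 0.988, 0.941, 1.64 and 0.826 (adjusted p = 1.48e-06). NOTUM, which inactivates WNT ligands, was at 7.79, 9.16, 3.26 and 7.26 FPKM in SNU719 and listed at 0 in YCC10. AXIN2, a feedback inhibitor and WNT target, averaged 43.5 FPKM in SNU719 and 101 in YCC10, and SP5, another target, 1.07 and 12.02. Of 17 tested stem and progenitor markers (3 under 1 FPKM in a line) 8 were called higher in SNU719 and 7 higher in YCC10, PROM1, AQP5 and AXIN2 among the latter. EPHB2 (42.8 and 16.3), SOX9 (93.6 and 57.2) and CD44 (142 and 85.6) were called higher in SNU719, with overlapping libraries for SOX9. ALDH1A1 was high in both and did not pass (82.1, 77.4, 97.6 and 51.9 FPKM in SNU719, 45.6, 42.9, 90.8 and 169 in YCC10, adjusted p = 0.966), with its libraries widely spread within each line. Without the sgCtrl library of SNU719 or of YCC10 it was called higher in SNU719 (log2 difference 0.59 in both cases, adjusted p = 0.0306 and 0.0309).

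Growth factor genes also divided. AREG, which encodes the EGF receptor ligand amphiregulin, was at 33.0, 35.7, 34.2 and 22.5 FPKM in SNU719 and 0, 0.0372, 0 and 0 in YCC10 (adjusted p = 6.07e-07), and BTC, betacellulin, averaged 4.77 and 0.0342. FGFR2, a receptor amplified in some gastric cancers, was at 4.40, 4.85, 5.37 and 5.34 FPKM in SNU719 and 51.1, 54.8, 58.8 and 32.8 in YCC10, 9.89-fold higher in YCC10 by the means (log2 difference -3.04, SE 0.16, adjusted p = 1.43e-05). Of the transcription factors downstream of ERK, ETV4 averaged 86.4 FPKM in SNU719 and 38.8 in YCC10, while ETV5 averaged 9.62 and 34.6. DUSP4, a feedback phosphatase, averaged 9.997 and 39.3, and the feedback inhibitor SPRED2 34.0 and 12.4. Over the 33 tested RAS, PI3K and ERK feedback genes (5 under 1 FPKM in a line), 10 were called higher in SNU719 and 16 higher in YCC10. Ligands of the TGF-beta family were exchanged: TGFB1 averaged 5.82 in SNU719 and 0.0274 in YCC10, TGFB2 0.00381 and 2.99, and GDF15 145 and 481. In the Notch pathway, NOTCH2 averaged 7.56 and 0.747, and the ligand JAG1 10.2 and 49.5. The Hedgehog ligand IHH averaged 0.729 in SNU719 and 20.6 in YCC10.

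Cell cycle drivers and brakes differed in both directions. Of 39 tested genes of p53, INK4 and the cell cycle (3 under 1 FPKM in a line), 15 were called higher in YCC10. In SNU719 10 were called higher, and 14 did not pass. CCND1, cyclin D1, was at 60.4, 59.6, 61.6 and 49.6 FPKM in SNU719 and 180.2, 183, 202 and 145 in YCC10 (log2 difference -1.60, SE 0.047, adjusted p = 1.65e-06). Its partner CDK6 averaged 14.2 and 53.3, and CCNE1, cyclin E1, 2.19 and 8.55. CDKN1A, the inhibitor p21 and a p53 target, was at 46.6, 52.1, 53.2 and 42.1 FPKM in SNU719 and 131, 154, 157 and 124 in YCC10 (adjusted p = 8.9e-06). SNU719 instead expressed CCND2, cyclin D2, at 7.80, 7.66, 9.49 and 11.8 FPKM, which YCC10 listed at 0. The inhibitors CDKN2C (23.6 in SNU719 and 8.60 in YCC10) and CDKN2B, given above, were also higher in SNU719. PHLDA3, a p53 target that restrains AKT, was at 22.7, 25.6, 13.8 and 18.5 FPKM in SNU719 and 0.0300, 0, 0.0295 and 0 in YCC10, so p53 target genes did not move as a block. Of 17 tested BCL2 family genes 11 were called higher in YCC10 and 2 higher in SNU719. They included the protector BCL2L1 (108 in SNU719 and 228 in YCC10) and the killers BIK (4.01 and 27.7) and BMF (1.94 and 7.12), while MCL1 did not pass (adjusted p = 0.0755; 0.0181 or 0.0179 without the sgCtrl library of SNU719 or YCC10). The count of 11 was 7 without YCC10 siCtrl 2 of the MYB set, without SNU719 siCtrl of the TCF7 set or without YCC10 siCtrl of the TCF7 set.

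Genes of mitosis were higher in YCC10 by small steps. Of 50 tested 33 were called higher in YCC10, 2 higher in SNU719 and 15 did not pass. Only 1 of them, CDC25B (78.2 in SNU719 and 155 in YCC10), reached 1 log2 unit, and the median was -0.45 in the controls and -0.07 in the knockdown libraries. Genes of DNA replication did not share this lean: 17 of 48 were called higher in SNU719 and 12 higher in YCC10, with a median of 0.08. MCM6, a subunit of the replicative helicase, averaged 54.7 FPKM in SNU719 and 17.6 in YCC10, and PCNA, the sliding clamp, did not pass (489.7 and 441, adjusted p = 0.0973; 0.0479 or 0.0476 without the TCF7-set control of SNU719 or YCC10). Ribosomal proteins were split as well, with 17 and 22 of 79 called and a median of -0.02. Without the set covariate 6 and 5 of them were called.

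Most of the detoxifying enzymes that were called were higher in SNU719. Of 61 tested (13 under 1 FPKM in a line), 35 were called higher in SNU719 and 14 higher in YCC10. ALDH3A1, an aldehyde dehydrogenase, was at 3013, 3296, 4252 and 1773 FPKM in SNU719 and 127, 137, 113 and 229 in YCC10, 20.3-fold apart by the means (log2 difference 4.32, SE 0.34, adjusted p = 9.27e-05). AKR1C3, an aldo-keto reductase whose close paralogs can share reads, averaged 213 and 15.6; the 4 AKR1C genes summed to 248, 259, 293 and 133 FPKM in SNU719 and 15.0, 16.4, 20.1 and 14.8 in YCC10. The drug exporter ABCC2 was at 55.4, 53.03, 85.7 and 41.4 FPKM in SNU719 and 0.137, 0.123, 0.105 and 0.0882 in YCC10. In both AKR1C and ABCC2 every SNU719 library was above every YCC10 library. YCC10 carried the UGT1A glucuronidation genes, which share most exons, at a summed 249.6, 251, 243 and 141 FPKM against 7.60, 7.43, 9.79 and 2.35 in SNU719. GSTP1, a glutathione transferase, averaged 1227 and 4236, and AKR1B1 0.00924 and 27.4.

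Genes of fuel use differed in both directions. CD36, a fatty acid receptor, was at 46.1, 42.9, 36.6 and 28.4 FPKM in SNU719 and averaged 0.00239 in YCC10, and FABP6, an intestinal bile acid carrier, averaged 14.5 and 0.0369. The acyl-CoA synthetases were exchanged, with ACSL5 at 143 in SNU719 and 47.1 in YCC10 and ACSL1 at 6.03 and 90.3. HK1, the housekeeping hexokinase of glycolysis, was at 18.7, 19.1, 22.4 and 17.2 FPKM in SNU719 and 0.0388, 0.0233, 0.0765 and 0.157 in YCC10 (adjusted p = 4.05e-07), while the later enzymes LDHA (474 and 449, adjusted p = 0.329; 0.0217 over all 16 libraries) and PKM (adjusted p = 0.824) did not pass. ENO1, another later enzyme, was called higher in SNU719 (1457 and 809.6, adjusted p = 7.5e-05). PHGDH, the entry enzyme of serine synthesis, was at 25.3, 28.6, 17.6 and 37.6 FPKM in SNU719 and 0, 0.0230, 0.0252 and 0 in YCC10 (adjusted p = 3.28e-06). The carbonic anhydrases were higher in YCC10: CA2 was at 116, 109, 75.1 and 92.3 FPKM there and 0.230, 0.273, 0.630 and 0.584 in SNU719, and CA12 averaged 41.6 and 3.18. Of 28 tested genes of cholesterol and fatty acid synthesis, 8 were called higher in SNU719 and 10 higher in YCC10.

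Oxidative phosphorylation genes leaned to YCC10. Of 79 tested 43 were called higher in YCC10, 8 higher in SNU719, and the median was -0.27. The 4 largest differences in that direction were those of NDUFV1 (62.5 in SNU719 and 179 in YCC10) and NDUFS6 (72.5 and 183) of complex I, SDHA of complex II (47.5 and 129.7) and COX6C of complex IV (110.2 and 275). SDHC, also of complex II, was at 16.3, 15.9, 14.3 and 14.4 FPKM in SNU719 and 2.63, 2.44, 2.25 and 2.97 in YCC10, the largest difference of the list and against the lean of the list.

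Several secreted proteins and nerve genes lay far apart. The cystatins CST1, CST2 and CST4, near-identical protease inhibitors, summed to 341, 418, 368 and 577 FPKM in YCC10 and 0, 0.297, 0.310 and 0.178 in SNU719. S100P, a calcium-binding protein of gastric and pancreatic tumours, was at 2.81, 3.87, 8.37 and 0.983 FPKM in SNU719 and 451, 509, 219 and 238 in YCC10, and S100A14 averaged 488 and 27.7. The matrix protease MMP7 averaged 4.26 in SNU719 and 85.0 in YCC10, and PLAU, the plasminogen activator urokinase, was at 12.8, 13.2, 20.2 and 10.2 in SNU719 and listed at 0 in YCC10. The neuropeptide gene GAL was at 53.5, 47.0, 31.2 and 37.0 FPKM in SNU719 and listed at 0 in YCC10. ENO2, the neuronal enolase, averaged 26.3 and 0.0672, and DDC, which makes dopamine and serotonin, 56.3 and 2.32. All 7 nerve and endocrine genes that were tested, of 39 in the list, were called higher in SNU719, 4 of them with a mean under 1 FPKM in a line.

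The difference between the lines also followed position along the chromosomes. Over 12056 genes with a position (RefSeq, GRCh38.p14), the median log2 difference per chromosome was lowest on chromosome 21 (-0.54, 131 genes), chromosome 8 (-0.31, 393 genes) and chromosome 11 (-0.30, 692 genes). It was highest on chromosome 13 (0.45, 206 genes), chromosome 16 (0.29, 592 genes) and chromosome 7 (0.27, 618 genes). In windows of 10 Mb with at least 20 tested genes, 28 of 218 window medians were at or above 0.4, 13 were at or below -0.4 and 177 lay between. All 41 outer windows had the same sign in the knockdown libraries, which were not used to pick the windows. They had it in each of the 4 control pairs (the lines within a set and replicate number) as well. Those pairs make up the control fit that picked the windows, so that part was nearly fixed in advance.

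Most outer windows (35 of 41) lay in the stretches given next and 6 lay outside them. The borders were chosen after the window values were seen and take in some windows between -0.4 and 0.4, so no test is given. On chromosome 5 the first 40 Mb held 75 tested genes with a median of -0.87, of which 57 were called higher in YCC10 and 6 higher in SNU719; the other 448 genes of the chromosome had a median of -0.03. On chromosome 8 from 90 Mb the median was -0.58 (187 genes), against -0.07 for the rest. On chromosome 11 from 60 Mb it was -0.39 (451 genes), and on chromosome 21 from 30 Mb -0.59 (99 genes). In the other direction, chromosome 2 up to 90 Mb had a median of 0.64 (319 genes, 245 called higher in SNU719 and 27 higher in YCC10), against -0.02 for its other 452 genes. Chromosome 1 between 100 and 120 Mb had 0.73 (88 genes) and up to 60 Mb 0.38 (508 genes). Chromosome 16 up to 40 Mb had 0.44 (340 genes), chromosome 17 from 50 Mb 0.44 (281 genes) and chromosome 7 up to 100 Mb 0.38 (363 genes). Chromosome 13, with 0.45 over all its 206 genes, is counted among the stretches. The plot of windows shows these steps and that the values of the 4 control pairs lay close together in most of them.

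**Figure D5:**
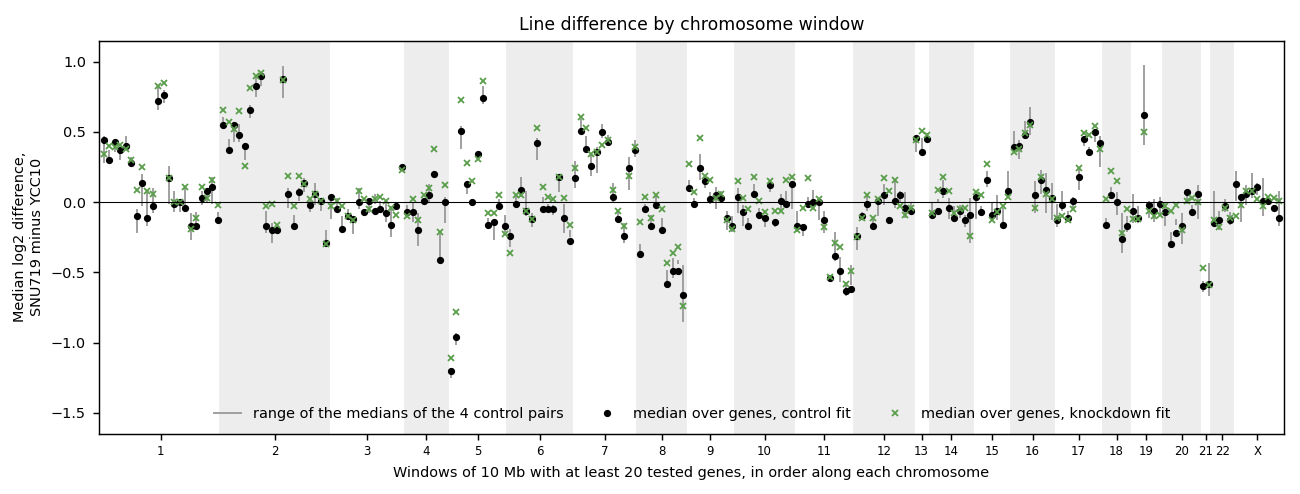
Median log2 difference (SNU719 minus YCC10, log2(FPKM + 1)) of the tested genes in each 10 Mb window with at least 20 tested genes, in order along the chromosomes (horizontal axis, shaded in turn). Black points are the control fit, grey bars the range over the 4 control pairs, green crosses the knockdown fit; windows at the start of chromosome 5 lie lowest and windows on chromosome 2 highest.

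Several named genes lie in these stretches. COX6C (chr8:99877865-99893707), LAPTM4B (chr8:97775788-97853013) and ATAD2 (chr8:123319850-123416350) are in that of chromosome 8. NDUFS6 (chr5:1801407-1816048) and SDHA (chr5:218320-268746) are in the first 40 Mb of chromosome 5, and NDUFV1 (chr11:67606936-67612554), CCND1 (chr11:69641156-69654474) and GSTP1 (chr11:67583812-67586653) lie between 60 and 70 Mb of chromosome 11. That window is within the stretch as drawn, but its own median was -0.13 (204 genes). Each oxidative phosphorylation gene named above as higher in YCC10 thus lies in a lower stretch. Of genes higher in SNU719, REG4 (chr1:119794017-119811460) and PHGDH (chr1:119711934-119744215) lie between 100 and 120 Mb of chromosome 1. HSPB1, AGR2, AGR3, HOXA10 and HOXA13 lie in the first 100 Mb of chromosome 7, and ESD, CDX2 and PDX1 on chromosome 13. Of 78 oxidative phosphorylation genes with a position, 13 (16.7 percent) were in the lower stretches, against 6.74 percent of all tested genes. Outside all stretches the list had 30 of 55 genes called higher in YCC10 and 3 higher in SNU719, with a median of -0.27, so its lean was also present there. The mitosis list had 1 of 50 genes in the lower stretches, and outside all stretches a median of -0.51. In the higher stretches lay 5 of 13 intestinal genes with a position (38.5 percent), 4 of 12 HOX genes (33.3 percent) and 0 of 25 cancer-testis genes. Of all tested genes 17.5 percent lay there. Outside all stretches the intestinal list had 5 of 7 genes called higher in SNU719 and 1 higher in YCC10, with a median of 1.60. The HOX list had 4 of 8 called in each direction there, with a median of 0.54. Over all genes outside the stretches the median was -0.03. The part of position in the difference of any single gene was not tested.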

How the data were processed

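RNA-seq of the SNU719 and YCC10 lines comprised 16 libraries, of which the 8 controls (4 per line) were compared and the 8 knockdowns served as other libraries of the same lines. Per the labels' protocols, libraries were made from 1 ug of total RNA with a stranded mRNA kit. Per the submitters' processing notes, bcl2fastq 2.20.0, HISAT2 2.1.0, Cufflinks 2.2.1 and the build hg38 were used; no source used here gives their settings or the annotation. The deposited values are FPKM, normalized by the authors, in a table of 33648 rows, with 0 columns of other samples. FPKM keeps no counts, so depth and counting error are unknown.

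Rows of the same symbol were summed (28167 symbols, 2097 of them on several rows), and 97.7 percent matched RefSeq names. Genes averaging 1 FPKM or more in these 8 libraries were fitted as log2(FPKM + 1) with limma 3.58.1 in R 4.3.3 (lmFit, eBayes with intensity trend, cell line plus set, 4 residual degrees of freedom). P-values were adjusted by Benjamini-Hochberg at 0.05, and a second count took calls of at least 1 log2 unit. On simulated data for this comparison (12187 genes, 200 changed) the fit called 177 of the changed genes and 9 of 11785 unchanged ones that were tested. The changed genes were drawn from the better expressed ones, and far fewer were changed than were called in the data. The simulated noise was independent between libraries, so false calls from effects that libraries share could not show. The members and the 48 gene lists were chosen with earlier results of these data known, so list counts are descriptions. Named are MYB and TCF7, the 12 largest differences in each direction without overlap between the lines, the 12 highest genes found in either line alone, and from each list up to 4 called genes per direction and 2 that did not pass. Short RNAs, clones, pseudogenes, Y genes and symbols on several rows are left out, unless stated, and some items are not reported here. Alternatives were other pseudocounts, filters, scalings, covariates and sets of libraries.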

Additional observations from a re-analysis of the deposited data

Results flagged for a closer look

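In 24 of 353 groups of 4 libraries of a named gene, 1 library stood apart from the other 3. For 4 libraries of the same kind, chance alone gives about 1 group in 20. Here 2 of the 4 share the MYB set and the rest are single libraries of their sets, so that rate is no baseline. Of the 24, 0 fell on a MYB-set library of either line. The YCC10 sgCtrl library had 9, the SNU719 sgCtrl library 8, the YCC10 siCtrl library of the TCF7 set 5 and that of SNU719 2. The sgCtrl libraries come from another delivery (CRISPRi) than the siCtrl libraries. In both lines the sgCtrl library was lowest for the lectin REG4, at 60.2 FPKM in SNU719 (others 146 to 153) and 16.5 in YCC10 (others 44.4 to 48.4). In both lines it was highest for SOX9, at 128 in SNU719 (others 77.1 to 84.6) and 88.9 in YCC10 (others 43.5 to 48.3).

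In SNU719 the sgCtrl library was also highest for DNMT3B (3.76 FPKM), LCK (1.89), MYBL1 (1.99) and RFXAP (4.43) and lowest for CCND1 (49.6) and GNAS (325). In YCC10 it was highest for CHAC1 (34.2), CXCL13 (299), HOXA3 (5.44), JAG1 (62.4) and SIM2 (53.8) and lowest for CA12 (36.6) and HOXC9 (6.36). The YCC10 siCtrl library of the TCF7 set was highest for ATF3 (13.1), CEACAM1 (104), HOXC6 (4.60) and OAS3 (58.9) and lowest for DKK1 (146). In SNU719 that library was highest for ATF3 (4.44), as in YCC10, and lowest for ATF4 (140.2). No cause of these values was tested.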

How the results depend on the processing

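Under 23 alternatives the number of called genes in the controls ranged from 5582 (mean of at least 5 FPKM) to 9572 (no filter), against 7797. Leaving out 1 control library at a time gave 7047 to 7483 calls, 3674 to 4063 of them higher in SNU719 and 3316 to 3473 higher in YCC10, with 1040 to 1176 and 823 to 886 at 1 log2 unit. With a minimum mean of 5 FPKM the counts at 1 log2 unit were 601 higher in SNU719 and 549 higher in YCC10 in the controls, and 654 and 599 in the knockdown libraries; fewer genes are tested under that filter. Without the set covariate the controls gave 5949 calls, 3178 higher in SNU719 and 2771 higher in YCC10. The knockdown libraries gave 4536 calls without it, 2515 higher in SNU719 and 2021 higher in YCC10. The cause was not tested. Leaving out 1 knockdown library at a time gave 5728 to 6909 calls. For the replicate numbers of the MYB set, the replicate differences of the lines correlated at 0.347 over the tested genes and at 0.657 without short RNA genes. With only 2 such pairs the libraries share only a number. A replicate block gave 8028 calls in the controls (4198 and 3830 by direction) and 6570 in the knockdown libraries. Of 198 named genes that were called, 190 were called under every alternative that tested them; CAPN8, CDX2, KRT8, MYBL2 and TCF7 are given with the results, and ATAD2 (adjusted p = 0.0706 by limma over all 16 libraries), CLDN4 and CLDN7 were the others. Quantile normalization brought 8 genes that had not passed under the threshold: BST2, EPHA2, MYBL1, MYD88, PCNA, REG1A, RELA and VAMP3. A replicate block brought 4 (BST2, MYD88, RELA and VAMP3). Leaving out short RNA genes brought 4 (RELA, RERE, SLC1A5 and VAMP3), and median-of-ratios scaling 2 (RELA and SLC1A5). ALDH1A1, not called, was -1.07 over all 16 libraries (adjusted p = 0.0374 by limma), and MYBL2 turned from -0.20 to 0.11 there (adjusted p = 0.556). The median difference of all genes was 0.02 as deposited, 0 with median-of-ratios scaling and -0.03 with quantile normalization. FPKM gives no counts, so no limit can be set on genes listed at 0.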

Other observations

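Transporters differed in both directions. Of 185 tested solute carrier genes (25 under 1 FPKM in a line), 65 were called higher in SNU719 and 66 higher in YCC10, beside 33.6 and 30.4 percent of all genes tested. The amino acid transporter SLC38A5 was at 44.9, 50.6, 42.4 and 42.9 FPKM in SNU719 and 0.262, 0.150, 0.117 and 0.149 in YCC10 (limma adjusted p = 8.61e-08), and the fatty acid transporter SLC27A2 averaged 16.8 in SNU719 and was listed at 0 in YCC10. In YCC10 the chloride transporter SLC26A9, found in gastric epithelium, was at 33.5, 36.2, 38.9 and 63.7 FPKM against 0.0837, 0.108, 0.514 and 0.384 in SNU719, the sodium-glucose transporter SLC5A1 averaged 16.2 against 0.245, and the amino acid transporter SLC6A14 83.4 against 4.82. The glutamine transporter SLC1A5 did not pass (154 in SNU719 and 191 in YCC10, limma adjusted p = 0.0741). It was called under some alternatives, among them without the TCF7-set control of SNU719 (limma adjusted p = 0.00704) or of YCC10 (0.00736).

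Stress response genes differed in the controls, but their median did not lean the same way in the knockdown libraries. Of 27 tested genes of ATF4 and the unfolded protein response (1 under 1 FPKM in a line), 13 were called higher in YCC10 and 2 higher in SNU719, with a median of -0.33 in the controls and 0.05 in the knockdown libraries, and ATF4 itself did not pass (182 and 216 FPKM, adjusted p = 0.142). ATF3 was at 2.76, 2.74, 4.44 and 2.80 FPKM in SNU719 and 6.82, 6.83, 13.1 and 7.59 in YCC10 (limma adjusted p = 2.37e-05). CHAC1, which degrades glutathione, was at 4.04, 3.63, 1.34 and 4.82 in SNU719 and 9.01, 9.58, 4.76 and 34.2 in YCC10, with overlapping libraries (limma adjusted p = 0.00265). Among imprinted genes, MKRN3 averaged 2.52 FPKM in SNU719 and was listed at 0 in YCC10, while GNAS averaged 371 and 517.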
